A study of Haplochromis burtoni and Eretmodus cyanostictus and Lepidiolamprologus attenuatus with 30 samples.

Results

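The hindmost section of the intestine was compared between 2 species of African cichlid, Lepidiolamprologus attenuatus and Eretmodus cyanostictus, by bulk RNA sequencing. The comparison used the 4 libraries of section 5, taken from fish 6 and 7 of L. attenuatus and fish 3 and 4 of E. cyanostictus, out of 30 libraries in the series. The other libraries were sections 1 to 4 of the same fish and all 5 sections of fish 1 and 2 of Haplochromis burtoni, another cichlid. Every intestine had been cut into 5 pieces of equal length, so section 5 is a relative position and not an anatomical landmark. The labels give no treatment, age or sex for any group, and the libraries were made from total RNA of each whole piece. In such libraries, fewer cells of a type and less RNA per cell cannot be told apart.

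In fishes the front of the intestine is known mainly for the uptake of digested fat, sugar and amino acids. The hind part is known for enterocytes that take up whole protein and break it down in lysosomes, and for exchange of water and ions. L. attenuatus hunts other fishes, whereas E. cyanostictus grazes on the algal cover of rocks, and long intestines are typical of grazing fishes. Genes carry numeric IDs in the deposited table, without names. None of the IDs (0 of 38425) matched the available H. burtoni gene table, so no gene function is assigned, the labelled tissue was not checked against marker genes, and the ID with the largest change and the ID with the highest level are given in each direction.

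The 4 section 5 libraries held 6726018 and 8476756 counts on genes in L. attenuatus fish 6 and 7, and 9319288 and 10542369 in E. cyanostictus fish 3 and 4. Genes with more than 3 counts numbered 20562 and 21410 in the first species and 22188 and 22410 in the second. Reads overlapping no annotated gene made up 7.66% and 7.53% of counts in L. attenuatus, and 8.30% and 8.24% in E. cyanostictus. The 10 most abundant genes took 11.0% and 10.5% of the counts in L. attenuatus and 4.30% and 5.22% in E. cyanostictus. The shallower libraries with fewer detected genes were thus both of L. attenuatus, and the part of this in the results below was not tested.

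In section 5, 4766 of 20369 tested genes (23.4%) differed between the species, at nearly equal numbers in both directions (edgeR quasi-likelihood F-test, Benjamini-Hochberg adjusted p under 0.05). L. attenuatus was higher at 2374 genes (11.7%) and lower at 2392 (11.7%). The median log2 fold change of L. attenuatus over E. cyanostictus was 1.68 among the higher genes and -1.83 among the lower genes, and it was -0.02 over all genes tested. Scaling by library size alone, in place of the trimmed mean of M values (TMM), shifted that last median by -0.19 and changed the split to 1843 higher and 3324 lower genes. Without L. attenuatus fish 7 the calls fell to 1171 higher and 860 lower, without fish 6 to 1308 and 945, and without E. cyanostictus fish 4 to 1274 and 1538.

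The difference between species was set against that between fish of one species. The median absolute log2 difference per gene was 0.32 between the L. attenuatus fish, 0.33 between the E. cyanostictus fish and 0.56 between the species means. Fish of one species were at least 2-fold apart at 2138 genes (10.5%) in L. attenuatus and at 2314 genes (11.4%) in E. cyanostictus. The species means were at least 2-fold apart at 5869 genes (28.8%). The values within a species compare single fish, and those between species compare means of 2 fish, which vary less. They are therefore unlike measures. At 13246 genes (65.0% of those tested) the values of the fish did not overlap between species, with L. attenuatus above at 6665 and below at 6581. All 4766 called genes were among these. Of the possible orders of 2 against 2 fish, a share of 0.333 has no overlap. Genes thus fail to overlap without any species difference too.

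**Figure D1:**
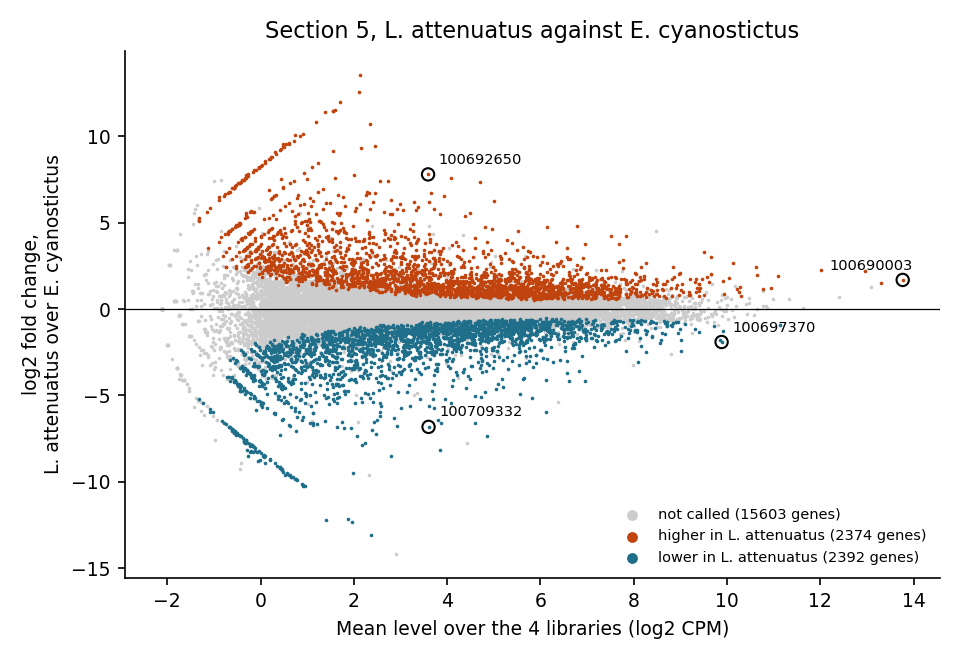
Each point is a gene tested in section 5, with its mean level over the 4 libraries in log2 CPM on the x axis and the log2 fold change of L. attenuatus over E. cyanostictus on the y axis. The 2374 genes called higher are red, the 2392 called lower are blue, and the 4 circled IDs are those described in the text. Diagonal lines at the left are genes with no or very few counts in 1 of the species.

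Most called genes had a fitted change of at least 2-fold, at 1924 higher genes (9.45%) and 2054 lower genes (10.1%). Calling favours large fitted changes, and under 2-fold 5.61% of 14058 genes were called. When edgeR tested against a 2-fold change, 709 higher and 629 lower genes passed. Between 2 and 4-fold, 976 genes were called higher and 987 lower. Between 4 and 8-fold the numbers were 447 and 483, and between 8 and 32-fold they were 333 and 384. A fitted change of 32-fold or more was seen at 168 higher and 200 lower genes. In 113 of the 168 and 157 of the 200, both libraries of the lower species were at or under 3 counts, so those fitted values have no reliable size. Placed at the bound that 3 counts allow, the medians of the 168 and the 200 genes were 5.10 and -4.04 on the log2 scale. Among all called genes 227 higher and 343 lower ones were of this kind, and placing them at their bounds moved the medians of the higher and lower genes to 1.67 and -1.78.

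The balance of directions varied with the level of the gene. Levels are given as CPM (counts relative to library size, scaled by TMM), which compare one gene between libraries and not different genes, since gene length is unknown. Of the 58 genes with a mean of 1000 CPM or more, 21 were higher in L. attenuatus and 4 lower. Between 100 and 1000 CPM, 331 of 1927 genes were higher and 215 lower, a balance that turned to 233 higher and 360 lower with library size scaling. In the class of 1000 CPM or more that scaling gave 16 higher and 6 lower. Between 10 and 100 CPM, 1148 of 9035 genes were higher and 1093 lower. Between 1 and 10 CPM, 784 of 8304 were higher and 990 lower, and under 1 CPM 90 of 1045 changed in each direction. With library size scaling these 3 classes held 837 higher and 1569 lower, 677 and 1276, and 80 and 113 genes.

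**Figure D2:**
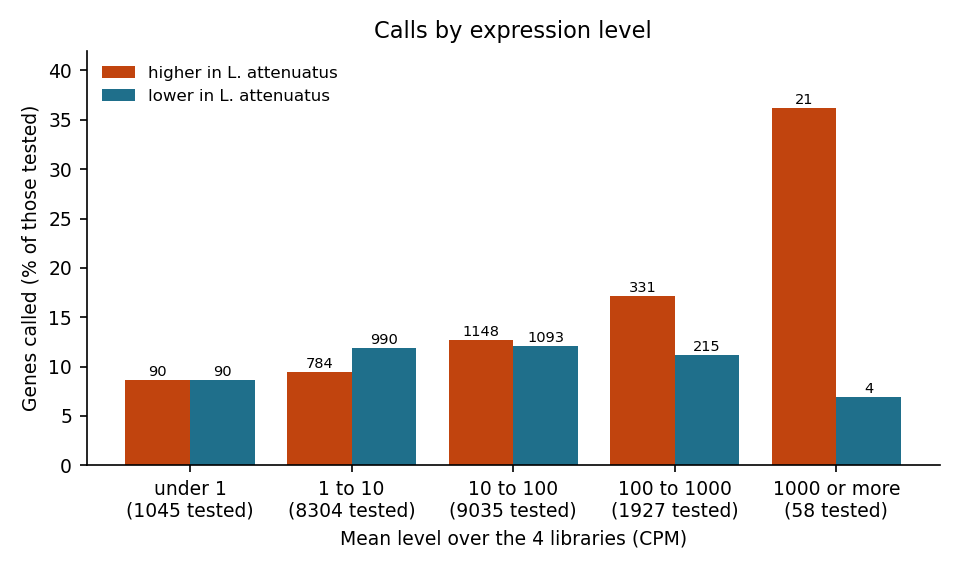
Bars give the percentage of tested genes called higher (red) or lower (blue) in L. attenuatus, for 5 classes of mean level in CPM, and the number above a bar is its count of genes. At 1 to 10 CPM 784 genes are higher and 990 lower, and at 1000 CPM or more 21 are higher and 4 lower.

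The called genes held unequal parts of the 2 transcriptomes. The 2374 genes called higher took 29.8% and 29.1% of all gene counts in L. attenuatus fish 6 and 7, and 11.4% and 11.9% in E. cyanostictus fish 3 and 4. The 2392 genes called lower took 5.12% and 5.06% in L. attenuatus and 15.6% and 16.2% in E. cyanostictus. These shares describe genes chosen for their difference in the same libraries and were not tested. Of the 20 most abundant genes of each species in section 5, 9 were common to both species, and all 9 were also among the 20 most abundant of H. burtoni section 5. The 9 shared genes took 10.3% and 9.93% of counts in L. attenuatus against 3.68% and 4.80% in E. cyanostictus, with 4 of them called higher in L. attenuatus and 0 called lower. Of the 20 most abundant genes of L. attenuatus, 12 were called higher there, and of the 20 of E. cyanostictus, 4 were called lower and 4 higher in L. attenuatus. Each list was ranked on the libraries compared, which favours genes higher in that species. Among all 58 genes with a mean of 1000 CPM or more, 21 were called higher and 4 lower.

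Some genes were at or under 3 counts in both fish of one species and reached a mean of at least 10 CPM in the other. There were 31 such genes low in E. cyanostictus and 41 low in L. attenuatus. Without L. attenuatus fish 7 the 41 became 76, and without E. cyanostictus fish 3 the 31 became 47. The 31 genes had a median of 20.5 CPM in L. attenuatus section 5, at least 74.6-fold higher than the 0.274 CPM that 3 counts represent in the shallower E. cyanostictus library. Of these, 14 had no count in either E. cyanostictus library, 16 were at or under 3 counts in all 10 libraries of that species, and 15 exceeded 3 counts in another of its sections. The 41 genes low in L. attenuatus had a median of 13.8 CPM in E. cyanostictus, at least 31.1-fold higher than the 0.444 CPM that 3 counts represent in L. attenuatus. Of these, 18 had no count in either L. attenuatus library and 24 were at or under 3 counts in all 10 libraries of the species. In H. burtoni section 5, both fish exceeded 3 counts at 15 of the 31 genes and at 28 of the 41. All 3 species were counted on the same IDs. A gene that reads of one species fail to reach and a gene that is not expressed therefore cannot be told apart here. The same limit applies to every called gene and every section, where reads of the species may reach an ID unequally. Its part in the species differences was not tested.

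The rule for the largest change asked for over 3 counts in every section 5 library of the lower species. It also asked for a mean of at least 20 CPM in the higher species and no overlap between the groups. Under it gene ID 100692650 had the largest called increase in L. attenuatus. Its section 5 level was 153 CPM in L. attenuatus fish 6 and 163 CPM in fish 7, against 0.823 CPM in E. cyanostictus fish 3 and 0.572 CPM in fish 4. The groups lay far apart, and the H. burtoni fish at 1.95 and 2.23 CPM lay just above E. cyanostictus. L. attenuatus exceeded E. cyanostictus by 7.79 on the log2 scale (SE 0.27, edgeR adjusted p = 0.000467, n = 2 fish per species). In L. attenuatus the gene stood at 41.9 and 61.2 CPM in section 4 and at no more than 1.82 CPM in sections 1 to 3. In E. cyanostictus it did not exceed 0.823 CPM in any section. In H. burtoni it was higher in section 5, from 16 and 20 counts, than in sections 1 to 4. That rise was 3.61 on the log2 scale (edgeR adjusted p = 0.0245). The excess of L. attenuatus was larger in section 5 than over sections 1 to 4 by 5.42 on the log2 scale (edgeR adjusted p = 0.0176, or 0.00155 with fish as a block). Without the block this call was lost when any of the 4 fish was left out (edgeR adjusted p from 0.0691 to 0.214, at 4.99 to 6.395 on the log2 scale) and against section 4 alone (1.77, edgeR adjusted p = 0.99997).

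Gene ID 100690003 had the highest level in section 5 of both species. Fish 6 and 7 of L. attenuatus reached 25807 and 24449 CPM, whereas fish 3 and 4 of E. cyanostictus reached 7670 and 7797 CPM. H. burtoni, at 5610 and 7552 CPM, lay just below E. cyanostictus. The log2 fold change of L. attenuatus over E. cyanostictus was 1.68 (SE 0.24, edgeR adjusted p = 0.00643). This call was lost when all 30 libraries shared one estimate of the spread (edgeR adjusted p = 0.55), at a log2 fold change of 1.68. In section 4 the 2 species overlapped, L. attenuatus holding 7840 and 9653 CPM and E. cyanostictus 5169 and 9014 CPM. From section 4 to section 5 the gene thus went up further in both L. attenuatus fish, as it did in E. cyanostictus fish 3, while E. cyanostictus fish 4 had a slightly lower value in section 5 than in section 4. The change of the species difference from sections 1 to 4 to section 5 did not pass the test (1.34 on the log2 scale, edgeR adjusted p = 0.962, or 0.971 with fish as a block). Its sign depended on the E. cyanostictus fish used, at 2.08 without fish 3 and -3.01 without fish 4. Without L. attenuatus fish 6 it was 1.23, and without fish 7 it was 1.45. In sections 1 and 2 every L. attenuatus and E. cyanostictus library was under 10 CPM. In section 3 E. cyanostictus fish 4 was at 922 CPM, fish 3 at 0.0881 CPM, and L. attenuatus fish 6 and 7 at 6.99 and 12.9 CPM.

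Gene ID 100709332 had the largest called decrease in L. attenuatus under the same rule, with over 3 counts in each L. attenuatus library of section 5. Its section 5 level was 1.48 CPM for L. attenuatus fish 6 and 0.696 CPM for fish 7, from 10 and 6 counts, whereas E. cyanostictus fish 3 held 95.98 CPM and fish 4 142 CPM. The log2 ratio of the species was -6.82 (SE 0.42, edgeR adjusted p = 0.00156). No count was found in either H. burtoni library of section 5, and no H. burtoni library held more than 3. In E. cyanostictus the gene was at 47.9 and 156 CPM in section 4, and in section 3 fish 4 was at 21.4 CPM and fish 3 at 0.352 CPM. In L. attenuatus sections 1 to 4 together gave 1 count. In E. cyanostictus the levels were thus highest in sections 4 and 5, and in the other species they were near 0 throughout. The species difference in section 5 did not pass the test against that in sections 1 to 4 (edgeR adjusted p = 0.966). With fish as a block the edgeR adjusted p was 0.879. The fitted change was 0.85 on the log2 scale. Since L. attenuatus sections 1 to 4 gave 1 count, this value has no reliable size or sign.

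Gene ID 100697370 had the highest level in E. cyanostictus among genes at least 2-fold lower in L. attenuatus. Levels were 586 and 412 CPM for L. attenuatus fish 6 and 7, 2169 and 1522 CPM for E. cyanostictus fish 3 and 4, and 2904 and 2220 CPM for H. burtoni. L. attenuatus lay below both other species, and both E. cyanostictus fish lay below both H. burtoni fish. The fitted log2 ratio was -1.91 (SE 0.31, edgeR adjusted p = 0.00838). The adjusted p rose to 0.05001 without L. attenuatus fish 7 and to 0.0887 in the fit of all 30 libraries, where the log2 fold changes were -1.67 and -1.91. The gene was expressed along the whole gut, from 282 to 867 CPM in sections 1 to 4 of L. attenuatus and from 471 to 2772 CPM in those of E. cyanostictus. Its species difference in section 5 departed from the mean difference over sections 1 to 4 by -0.09 on the log2 scale. The edgeR adjusted p was 0.99998, or 0.933 with fish as a block. That mean covered unlike sections. In section 1 the species overlapped, with L. attenuatus at 867 and 288 CPM and E. cyanostictus at 1949 and 471 CPM. In section 4 they stood apart, at 388 and 484 CPM against 2772 and 1626 CPM.

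**Figure D3:**
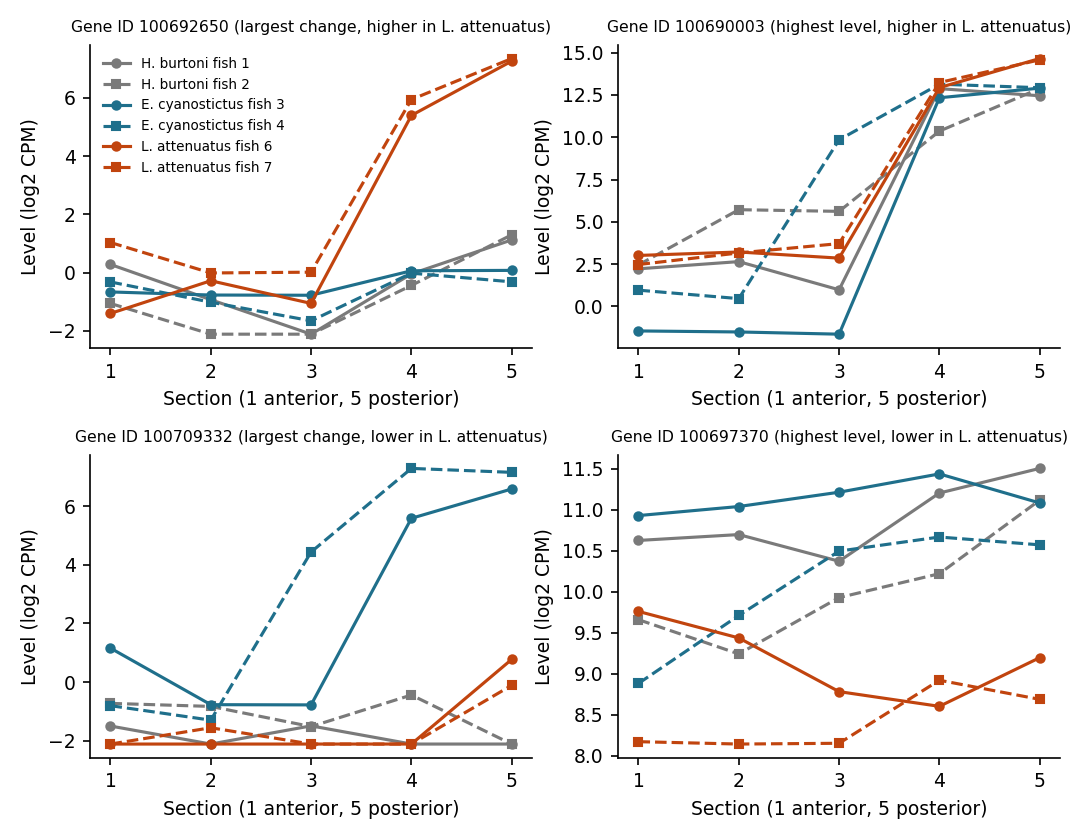
Levels of the 4 IDs in log2 CPM (a prior count of 2 was added) along sections 1 to 5, one line per fish, with L. attenuatus in red, E. cyanostictus in blue and H. burtoni in grey. Gene ID 100692650 rises in sections 4 and 5 of L. attenuatus and, at a far lower level, in section 5 of H. burtoni. Gene ID 100709332 rises in the posterior sections of E. cyanostictus, while gene ID 100690003 rises in all 6 fish.

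Whether the differences of section 5 were also present in the rest of the intestine was examined in the same fish. For the 1924 genes called at least 2-fold higher in L. attenuatus, the median log2 difference was 1.39, 1.46, 1.40, 1.57 and 1.86 in sections 1 to 5. For the 2054 genes called at least 2-fold lower, it was -1.60, -1.59, -1.70, -1.66 and -1.88. Over all tested genes the medians lay between -0.04 and 0. The genes were chosen on the section 5 libraries, so the larger value in that section follows from the choice. In section 4, 73.9% of the higher genes and 79.6% of the lower genes were at least 2-fold apart in the same direction, and in section 1 62.8% and 69.5% were. Over all tested genes L. attenuatus was at least 2-fold higher at 13.5% and lower at 14.0% in section 4, and at 15.5% and 22.4% in section 1.

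At 951 of the 1924 higher genes (49.4%) and 1137 of the 2054 lower genes (55.4%), the difference was at least 2-fold in the same direction in all 4 anterior sections as well. At 299 (15.5%) and 176 (8.57%), none of sections 1 to 4 showed a 2-fold difference in that direction. A 2-fold difference in the opposite direction in at least 1 other section was seen at 109 (5.67%) and 77 (3.75%) genes. The sections of 1 fish are not independent, so these counts describe the 4 fish and carry no test. No share over all tested genes is given for these patterns.

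**Figure D4:**
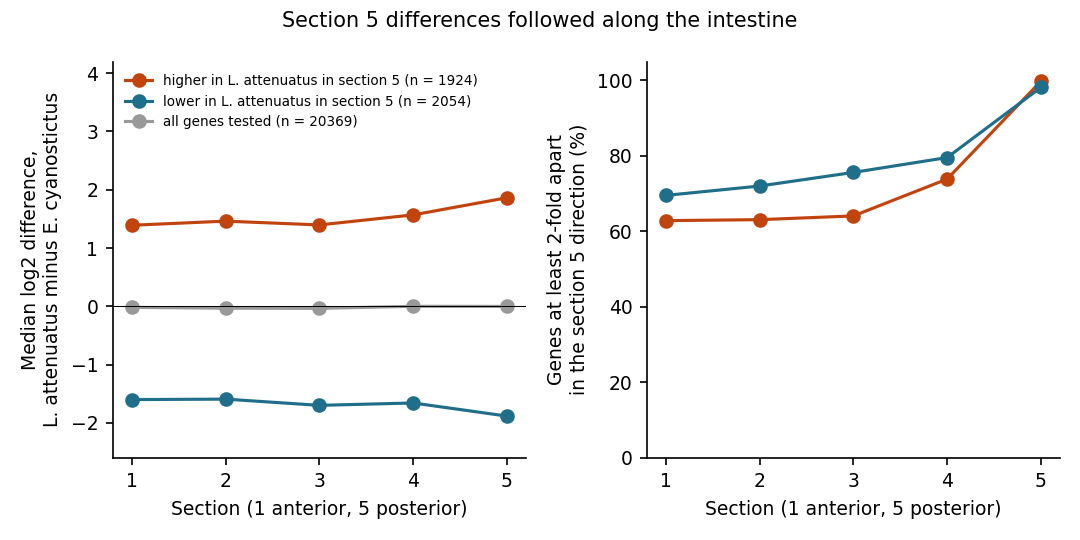
The left panel gives the median log2 difference between L. attenuatus and E. cyanostictus in each section, for genes called at least 2-fold higher (red) or lower (blue) in section 5 and for all genes tested (grey). The right panel gives the percentage of the called genes at least 2-fold apart in the section 5 direction, which is 62.8% and 69.5% in section 1 and 73.9% and 79.6% in section 4.

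A direct test asked at which genes the species difference in section 5 was unequal to the mean difference over sections 1 to 4. Without a block it entered the sections of a fish as independent libraries. In the 20 libraries of both species, 36 of 21884 genes (0.165%) passed, of which 17 had a higher and 19 a lower L. attenuatus value in section 5 relative to the anterior sections (edgeR adjusted p under 0.05). When each fish was fitted as a block, so that sections were compared inside one gut, 480 genes passed (2.19%), 234 higher and 246 lower, and these included all 36. Of the 3966 genes called at least 2-fold in section 5 and tested here, 28 passed without the block (0.706%) and 251 with it (6.33%). The 3966 genes were chosen on the same section 5 libraries, which favours a pass in this test. Without the block, leaving out either L. attenuatus fish left 0 calls in edgeR, with 1060 and 1066 genes at an unadjusted p under 0.05. Leaving out either E. cyanostictus fish did not lower the number of calls. In each of these fits the species that lost a fish kept a single library per section. The spread then came from the other species alone, so these counts do not show which fish the result rests on. Against section 4 alone 0 genes passed in edgeR, with 488 at an unadjusted p under 0.05. DESeq2 called 447 genes in the comparison with sections 1 to 4 and was not run for those variants.

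The 36 genes were described by their profiles in each species. At 22 the sign of the species difference in section 5 was opposite to that over sections 1 to 4, at 8 it was the same and larger, and at 6 the same and smaller. No minimum size was asked for these signs. The choice of genes with a changed difference favours a turned sign, and no share over all genes is given. The step from sections 1 to 4 to section 5 was larger in L. attenuatus at 31 of the 36 genes and in E. cyanostictus at 5. Its median absolute size was 3.34 in L. attenuatus and 0.62 in E. cyanostictus on the log2 scale. Among the 480 genes called with the block, L. attenuatus had the larger step at 414, with medians of 1.90 and 0.46. Over all 21884 genes it had the larger step at 66.3%, with medians of 0.35 and 0.21. In H. burtoni, whose libraries played no part in this test, the step was nearer to that of E. cyanostictus at 25 of the 36 genes and at 292 of the 480, against 57.5% of all genes. The fish of E. cyanostictus were at least 2-fold apart at 39.5% of genes in section 1 and 30.6% in section 2, against 15.2% and 13.7% in L. attenuatus, and the part of this in the counts was not tested.

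Genes with a posterior or anterior bias were then taken from H. burtoni, whose fish belong to neither group compared. The test for this entered the sections of a fish as independent libraries. The section 5 libraries of H. burtoni also entered the filter and the estimate of the spread in the section 5 contrast. A listed gene could thus be tested there through its H. burtoni level alone. In H. burtoni 1481 of 19886 genes (7.45%) differed at least 2-fold between section 5 and sections 1 to 4 (edgeR adjusted p under 0.05). Of these, 952 were higher in section 5 and are called posterior, and 529 were lower and are called anterior. Most of these genes had the same bias in the other species. Of the 949 posterior genes tested in section 5, 753 (79.3%) were higher in section 5 than in sections 1 to 4 in both L. attenuatus fish and 57 (6.01%) lower in both, where 38.5% and 29.7% of all tested genes were. In E. cyanostictus 692 posterior genes (72.9%) were higher and 40 (4.21%) lower in both fish, where 29.2% and 25.04% of all genes were. Of the 495 anterior genes, 353 (71.3%) were lower and 62 (12.5%) higher in both L. attenuatus fish, and 343 (69.3%) were lower and 21 (4.24%) higher in both E. cyanostictus fish.

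The posterior genes differed in both directions when L. attenuatus was set against E. cyanostictus in section 5. Of the 949, 243 were higher in L. attenuatus and 175 lower, together 44.0%, where 23.4% of all genes tested were called. Between 10 and 100 CPM, 44.9% of 450 posterior genes were called against 24.8% of all 9035 genes of that level. Of the 495 anterior genes, 85 were higher and 59 lower, together 29.1%. With fish as a block in the H. burtoni test the posterior list grew to 1409 tested genes, of which 300 were higher and 269 lower (40.4% called), and the anterior list to 1064, with 130 higher and 113 lower (22.8% called). In the fit of all 30 libraries 120 of the posterior genes were higher and 114 lower (24.6% called, where 14.4% of all genes were), and 13.4% of the anterior genes were called. In the fit of the 4 libraries without H. burtoni, 895 posterior genes passed the filter, against 949 with it. Of the 895, 179 were higher and 135 lower (35.1% called, where 17.0% of all genes were). Without L. attenuatus fish 7 the posterior counts fell to 146 and 81 (23.8% called, where 9.46% of all genes were) and the anterior counts to 42 and 32 (14.5%). Without fish 6 the counts also fell, at a median log2 fold change of 0.047 for the posterior and 0.12 for the anterior genes. The lists were not tested against other genes.

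The median of the posterior list lay near that of all genes. The log2 fold change of L. attenuatus over E. cyanostictus had a median of 0.08, with quartiles at -0.97 and 1.03, and over all tested genes the median was -0.02, with quartiles at -0.64 and 0.54. With library size scaling the posterior median was -0.09, at a median of -0.21 over all genes. The anterior median was 0.02, with quartiles at -0.84 and 0.97, and it moved to 0.39 without E. cyanostictus fish 3 and to -0.19 without L. attenuatus fish 7. The summed level of the posterior list was nevertheless higher in both L. attenuatus fish, at 206354 and 194205 CPM, than in E. cyanostictus, at 93499 and 109436 CPM. Without gene ID 100690003, its most abundant member, the sums were 180546 and 169756 CPM against 85829.5 and 101639 CPM. Summed over all tested genes, values were 993621 and 980807 CPM in L. attenuatus against 850377 and 859174 CPM in E. cyanostictus. This total mainly follows from the TMM factor of each library and is not a difference in expression. The same factors enter the sums of both lists. The posterior sums lay proportionally further apart than these totals. A few abundant genes can set such sums. The summed anterior list overlapped, at 25239 and 32767 CPM in L. attenuatus and 28484 and 19234 CPM in E. cyanostictus.

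**Figure D5:**
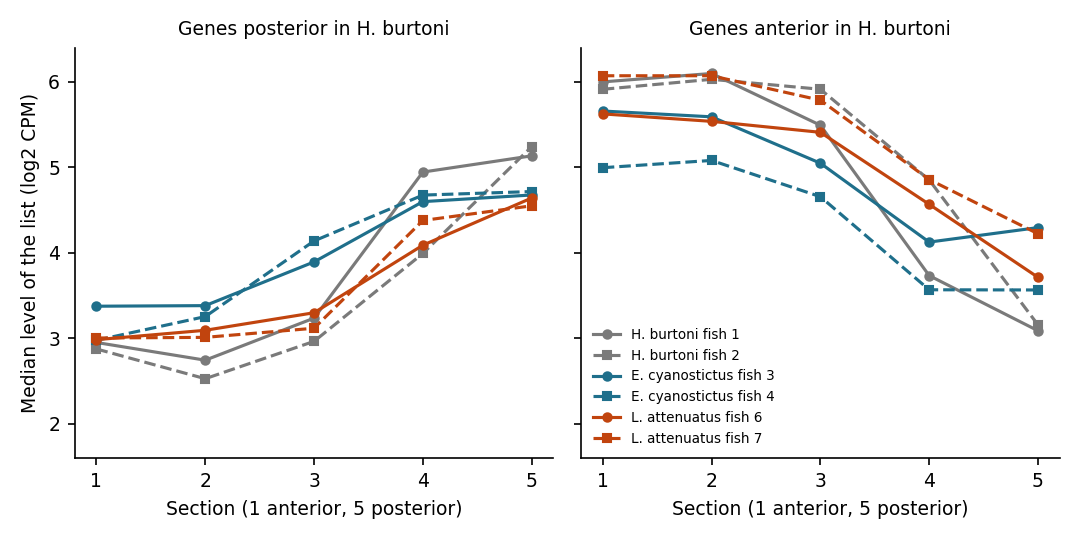
Median level in log2 CPM of the genes that are posterior (left, 949 genes) or anterior (right, 495 genes) in H. burtoni, along sections 1 to 5, one line per fish, with L. attenuatus red, E. cyanostictus blue and H. burtoni grey. In section 5 the posterior medians of L. attenuatus (4.64 and 4.55) and E. cyanostictus (4.68 and 4.72) lie close together and under those of H. burtoni (5.13 and 5.24), in which the list was chosen.

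The called genes were also set beside their level in H. burtoni section 5. Among the 1924 genes called at least 2-fold higher in L. attenuatus, the mean H. burtoni log2 level was nearer to E. cyanostictus at 1202 (62.5%) and nearer to L. attenuatus at 722. Among the 2054 genes called at least 2-fold lower, it was nearer to E. cyanostictus at 1108 (53.9%) and nearer to L. attenuatus at 946. H. burtoni lay between the species at 1191 and 1239 genes of the 2 sets. It lay beyond L. attenuatus at 260 and 350, and beyond E. cyanostictus at 473 and 465. The genes were chosen for their difference between the other species and no share over all tested genes is given, so these counts are a description. The median level of the higher genes was 19.9 CPM in L. attenuatus, 4.17 CPM in E. cyanostictus and 7.88 CPM in H. burtoni. That of the lower genes was 3.09, 14.5 and 7.64 CPM in the same order.

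Across the 20369 genes, which are not independent replicates, log2 levels of section 5 correlated with r = 0.962 between the L. attenuatus fish and 0.953 between the E. cyanostictus fish. Between the species r was 0.830 to 0.847. Section 4 of the other species was about as near as section 5. L. attenuatus fish 6 had a mean r of 0.841 with section 4 and 0.839 with section 5 of E. cyanostictus, and fish 7 had 0.839 with both. E. cyanostictus fish 3 had 0.852 with section 4 and 0.847 with section 5 of L. attenuatus, and fish 4 had 0.824 and 0.831. All 4 libraries were less like the other species' section 1, with a mean r of 0.748 to 0.795. These values share libraries and are given as a description.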

How the data were processed

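The authors deposited 1 table of raw counts per gene ID for 30 libraries. Trimmomatic, STAR and HTSeq are named per the submitters' processing notes, without versions. The genome build, the annotation and strand handling are not given in the sources used here, so overlapping, antisense and paralogous genes cannot be told apart. Rows of unassigned reads were left out (7.53% to 8.30% of counts in section 5 overlapped no gene and 2.92% to 3.16% several). Columns of E. cyanostictus and L. attenuatus carry fish numbers other than the labels' and were assigned to groups by species and section. P-values of the section 5 contrast rest on the spread between the 2 fish of each species. Fits of several sections without a block entered the sections of a fish as independent libraries, so their p-values do not measure the spread between fish alone. With fish as a block, p-values rest on the spread left after the level of each fish was fitted.

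Counts were tested with edgeR 4.0.16 in R 4.3.3 on the 6 libraries of section 5, 1 per fish, H. burtoni adding to the estimate of the spread. Filtering was by filterByExpr, scaling by TMM and adjustment by Benjamini-Hochberg, called under 0.05, and the SE is the fold change over the root of F. Levels are CPM with TMM over all 30 libraries, and log2 levels have a prior count of 2. An exact permutation test of 2 against 2 fish cannot go under p = 0.333 (two-sided), so none is given. Differences between the fish correlated across section pairs at r of 0.309 to 0.689 in L. attenuatus, 0.276 to 0.837 in E. cyanostictus and 0.217 to 0.671 in H. burtoni, so columns with the same fish number were treated as 1 animal.

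IDs were chosen by rule. In each direction they are the called gene with the largest change (at least 20 CPM in the higher species, more than 3 counts in each library of the lower, no overlap) and the called gene of highest level with at least a 2-fold change. The comparison, lists and tests were chosen with earlier results of these data known. Alternatives included DESeq2 1.42.0. Scripts were tested on simulated data. These counts were drawn independently for each library, without differences between fish, so the handling of several sections of a fish was not checked.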

Additional observations from a re-analysis of the deposited data

Results flagged for a closer look

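At 36 of 21884 genes (0.165%) the difference between L. attenuatus and E. cyanostictus in section 5 was not that in sections 1 to 4, by a direct test of the difference (edgeR, adjusted p under 0.05). At 22 of the 36 genes the sign turned, with no minimum size asked. The genes were chosen for a changed difference, which favours a turned sign, and no share over all genes is given. At 31 of the 36 genes the step into section 5 was larger in L. attenuatus, as it was at 66.3% of all genes tested. Without the block, leaving out either L. attenuatus fish left 0 calls in edgeR, with 1060 and 1066 genes at an unadjusted p under 0.05, and DESeq2 with all fish called 447. The number of calls did not fall when either E. cyanostictus fish was left out. With a fish left out, the spread came from the other species alone, so these counts do not show which fish the result rests on. No group holds 4 or more fish, so single outlying libraries were not tested for.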

How the results depend on the processing

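The 2374 higher and 2392 lower calls stayed within 1.5 times in the fits of 4 and of 30 libraries, under the other scalings and filters and in DESeq2. They moved to 801 and 628 at an adjusted p under 0.01, and to 709 and 629 when tested against a 2-fold change. Leaving out 1 section 5 library gave 1171 to 1746 higher and 860 to 1972 lower genes. The lone sample of a species was then assumed to vary like the other groups. The test of section 5 against sections 1 to 4 gave 17 higher and 19 lower genes. With the replicate block these became 234 and 246, in DESeq2 266 and 181, with library size scaling 33 higher, against sections 2 to 4 they were 6 and 9, against section 4 alone 0 and 0 (488 genes at an unadjusted p under 0.05), and at an adjusted p under 0.01 4 and 3. Without 1 fish they ran from 0 to 20 higher and 0 to 49 lower genes.

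No paired analysis was possible because the species compared in section 5 share no fish. Blocking applied to sections within a fish and to the H. burtoni lists.

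Over all genes the calls fell to 1674 higher and 1678 lower with 4 libraries and to 1596 and 1639 with 30. They fell to 801 and 628 at an edgeR adjusted p under 0.01, and to 709 and 629 against 2-fold. Posterior genes called higher and lower were 120 and 114 with 30 libraries. They were 111 and 63 at an edgeR adjusted p under 0.01, and 77 and 58 against 2-fold. With the list from the replicate block 269 posterior genes were lower. Leaving out 1 library gave 146 to 182 and 81 to 168. The posterior median moved by more than its spread over fish pairs, to -0.091 with library size scaling, 0.14 with a mean of 10 counts in each species, 0 with the list from the replicate block, 0.31 with the list from section 5 against section 1, and 0.043 to 0.18 without 1 library. Anterior genes called higher and lower were 52 higher in the fit of 4 libraries, 35 and 36 in that of 30, 34 and 21 at an adjusted p under 0.01, 25 and 24 against 2-fold, and 130 and 113 with the replicate block. Without 1 library they were 42 to 113 and 27 to 74, with a median of -0.19 to 0.39.

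Genes at the floor in E. cyanostictus and L. attenuatus were 14 and 18 with no counts, 76 and 114 with at most 10 counts, 73 and 93 at 5 CPM or more, 6 and 8 at 50 CPM or more, and 32 to 47 and 38 to 76 without 1 library. The causes were not tested. All 4 IDs kept their direction in every alternative that tested them. Gene IDs 100692650 and 100709332 kept their calls in all of them but were not tested with a mean of 10 counts in each species. Gene ID 100690003 also lost its call against a 2-fold change (adjusted p = 0.0517). Depth limits genes under 1 CPM, where few counts separate the species.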
